A study of Rattus norvegicus with 4 samples.

Results

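The genes described here encode folding and quality control proteins of the endoplasmic reticulum (ER) that belong to the unfolded protein response: the chaperone genes Hspa5, Hsp90b1, Calr and Canx, the disulfide isomerase genes Pdia3, Pdia4 and Pdia6, the transcription factor gene Xbp1, and Herpud1 and Dnajb9, which act in quality control. They were chosen for their function, with earlier results of these data known, through probes whose accession matches the RefSeq transcript of the gene. All 10 had a probe, with 11 probes between them, out of 16576 named genes and 39498 genes and unnamed transcripts measured. Every sample came from NR8383, a continuous rat alveolar macrophage line first grown from lung lavage of a normal rat, after 20 passages. Cells were seeded for 48 h and received carbon black (Printex 90), a powder of carbon nanoparticles, at 0.9 cm²/cm² for 4 h. RNA from 4 biological replicates was hybridised to 1-colour Agilent rat arrays, 1 array each. This exposed group was the 1 group analysed, and cells incubated without particles were not analysed here, so no value below is an effect of carbon black. Those earlier results held their levels over the same 4 replicates, so the genes count as selected on these levels, which are given as a description with no test.

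The ER is where secreted and membrane proteins fold, acquire disulfide bonds and are inspected before export. When unfolded protein accumulates there, the membrane sensors IRE1, PERK and ATF6 raise the production of chaperones, disulfide isomerases and degradation factors. IRE1 removes a short intron from Xbp1 mRNA, and the protein made from the spliced form activates many of these genes, while PERK acts through the transcription factor ATF4. Macrophages secrete cytokines and lysosomal enzymes and carry many receptors, and all of these pass through the ER.

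ATF6 and XBP1 bind an ER stress element in the promoters of chaperone genes, and this element is shown first because most of the promoter windows at hand held it in full.
RefSeq promoter windows of assembly GRCr8, 250 bases before to 50 after the gene's start, were at hand for 8 of the 10 genes, all but Pdia3 and Pdia6. The element was searched on both strands as CCAAT and CCACG with any 9 bases between them. It was present in 5 of these 8 windows, those of Hspa5, Hsp90b1, Calr, Canx and Xbp1, against 22 of all 33469 windows of the same length (0.0657%). The matches are written with the CCAAT end first and with the 10 fixed bases in capitals.
Hspa5: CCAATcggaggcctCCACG
Hsp90b1, upstream match: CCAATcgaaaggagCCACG
Hsp90b1, downstream match: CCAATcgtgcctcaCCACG
Canx: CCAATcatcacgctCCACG
Xbp1: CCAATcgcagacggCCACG
Calr: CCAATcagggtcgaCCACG

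The Hspa5 match lay at chr3:38452973-38452991, beginning 43 bases before the start, and the Xbp1 match at chr14:84604558-84604576, beginning 65 bases before it, both on the plus strand and in the direction of the gene. The Canx match at chr10:35158069-35158087 was also in the direction of the gene, on the minus strand. The Calr match at chr19:40213135-40213153 lay on the strand opposite to the gene. Hsp90b1 held a match in each direction, at chr7:23012451-23012469 along the gene and at chr7:23012347-23012365 against it. No spacer of 9 bases was the same in any pair of matches, though all 6 began with c.

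A related arrangement, ATTGG and CCACG with any 1 base between them, known as ERSE-II and first described for the human HERPUD1 gene, was searched after the windows had been seen. It was present in 1 of the 8 windows, that of Herpud1, and in 17 of 33469 windows (0.0508%). It overlaps a CCAAT box read from the opposite strand.
Herpud1: ATTGGgCCACG

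This match lay at chr19:10614821-10614831 on the minus strand, which is the strand of the gene, and began 124 bases before the start. The windows of Pdia4 and Dnajb9 held neither arrangement, and none of the 8 held TGACGTGG, the XBP1 site that 199 windows (0.595%) carried. The short parts by themselves are common, with CCAAT in 37.5% and CCACG in 31.6% of all windows. Each was found in all 8 of these windows, and a window with either full arrangement holds both parts by definition. A match describes letters in a window and does not show binding. The windows with the closest match to the start, that of Hspa5, with the most matches, that of Hsp90b1, and with the different arrangement, that of Herpud1, are given whole, 5′ to 3′ along the gene, with the fixed bases of the matches in capitals. They span chr3:38452766-38453065 (plus strand), chr7:23012244-23012543 (minus strand) and chr19:10614658-10614957 (minus strand).
Hspa5 window: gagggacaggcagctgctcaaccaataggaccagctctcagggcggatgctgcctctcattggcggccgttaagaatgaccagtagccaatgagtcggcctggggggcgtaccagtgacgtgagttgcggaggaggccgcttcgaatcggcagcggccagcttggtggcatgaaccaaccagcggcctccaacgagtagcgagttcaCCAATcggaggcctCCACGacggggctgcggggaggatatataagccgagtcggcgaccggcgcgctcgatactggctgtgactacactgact
Hsp90b1 window: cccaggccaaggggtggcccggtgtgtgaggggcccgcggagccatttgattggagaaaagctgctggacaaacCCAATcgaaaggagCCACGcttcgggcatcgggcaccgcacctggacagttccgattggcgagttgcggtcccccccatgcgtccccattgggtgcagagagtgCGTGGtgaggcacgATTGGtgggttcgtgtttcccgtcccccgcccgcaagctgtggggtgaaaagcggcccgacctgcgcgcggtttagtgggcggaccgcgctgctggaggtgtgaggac
Herpud1 window: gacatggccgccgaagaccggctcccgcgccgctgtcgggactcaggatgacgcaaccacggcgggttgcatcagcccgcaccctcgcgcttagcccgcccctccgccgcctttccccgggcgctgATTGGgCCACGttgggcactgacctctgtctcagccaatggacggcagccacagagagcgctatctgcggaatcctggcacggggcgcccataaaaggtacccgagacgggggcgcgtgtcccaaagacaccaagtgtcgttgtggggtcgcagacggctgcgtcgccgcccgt

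The arrays gave a signal for every one of the genes. A level is log2 of the scanner software's processed intensity after subtraction of the 75th percentile of all probes on that array, which is thus 0, and levels of different probes cannot be set against each other. The software marked between 37.5% and 40.9% of the 45598 probes as well above background on an array, and no spot was saturated. All 10 genes were so marked on all 4 arrays, against 34.0% of all genes and unnamed transcripts and 48.0% of named genes. Of 8 macrophage markers, such as Cd68 and Ptprc, all 8 were detected on all arrays. Of 16 measured markers of alveolar type 2 cells, T cells, B and plasma cells and fibroblasts, Napsa was detected on all arrays and 15 on none, among them Sftpc, Cd3e and Col1a1.

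**Figure D1:**
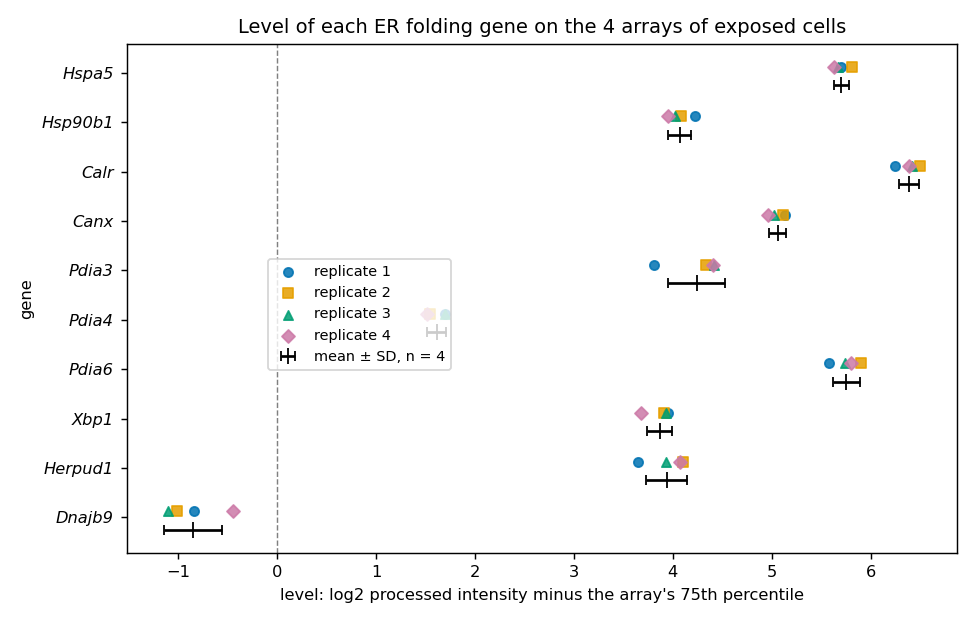
Level of each of the 10 genes (horizontal axis, log2 units, 0 is the array's 75th percentile) on the 4 arrays (coloured symbols), with the mean and SD in black below them. Pdia3 on replicate 1 (3.81) and Dnajb9 on replicate 4 (-0.44) lie apart from the other arrays of the same gene, and levels of different genes are not comparable.

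Hspa5 encodes BiP, the HSP70 chaperone of the ER lumen, which binds unfolded chains and holds the stress sensors inactive. Its levels were 5.70, 5.81, 5.67 and 5.63 on replicates 1, 2, 3 and 4, with a mean of 5.70 ± 0.077 (SD, n = 4). Replicate 2 was highest and replicate 4 lowest, and the whole range was 0.18 log2 units, a 1.13-fold difference in intensity. Before scaling, the processed intensities were 5688, 5257, 3243 and 3158, so that most of the difference in raw brightness between the first and the last pair of arrays was shared with the array as a whole.

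Hsp90b1 encodes GRP94, the HSP90 chaperone of the ER, which among other clients folds Toll-like receptors and integrins. Its levels were 4.22, 4.08, 4.02 and 3.95, with a mean of 4.07 ± 0.12 (SD, n = 4). Replicate 1 was highest and replicate 4 lowest, 0.27 log2 units apart.

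Calr and Canx encode calreticulin and calnexin, the soluble and the membrane-bound lectin chaperones that hold glycoproteins while they fold. Calr had levels of 6.25, 6.49, 6.42 and 6.38, lowest on replicate 1, with a mean of 6.39 ± 0.10 (SD, n = 4). Canx had levels of 5.14, 5.12, 5.02 and 4.96, lowest on replicate 4, with a mean of 5.06 ± 0.082 (SD, n = 4). With the main scaling, the partners of this cycle were placed differently on replicate 1, where Calr lay 0.14 below its own mean and Canx 0.077 above. With quantile normalization Calr was at -0.022 there. With the normexp background correction both lay above their means, Calr at 0.083 and Canx at 0.29. A second Canx probe was not well above background on any array, with processed intensities of 5.30, 2.59, 2.54 and 2.76 against 3833, 3249, 2068 and 1984 for the probe used, and it gives no second reading of the gene.

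Pdia3 encodes ERp57, the oxidoreductase that works with calnexin and calreticulin and sits in the loading complex of class I histocompatibility molecules. Its levels were 3.81, 4.33, 4.41 and 4.40, with a mean of 4.24 ± 0.29 (SD, n = 4). Replicates 2, 3 and 4 lay close together, and replicate 1 was lower than all of them, which gave a range of 0.61 log2 units or 1.52-fold in intensity. In raw intensity, replicate 1 was not the lowest, with 1527, 1890, 1358 and 1347, so its place depends on the array's brightness being divided out.

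The other disulfide isomerases varied less. Pdia4, which encodes ERp72, had levels of 1.70, 1.55, 1.70 and 1.52, with a mean of 1.62 ± 0.096 (SD, n = 4). Replicates 1 and 3 were the higher pair, and the range was 0.18. Pdia6, whose product P5 binds BiP and tunes the sensors IRE1 and PERK, had levels of 5.58, 5.90, 5.74 and 5.80, with a mean of 5.75 ± 0.14 (SD, n = 4). It was lowest on replicate 1 and highest on replicate 2, 0.33 log2 units apart.

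Xbp1 encodes the transcription factor whose mRNA is spliced by IRE1. Its levels were 3.95, 3.91, 3.93 and 3.68, with a mean of 3.87 ± 0.13 (SD, n = 4). Replicates 1, 2 and 3 lay close together, and replicate 4 was lower than each of them. RefSeq lists 2 Xbp1 transcripts, the files hold no probe sequence, and whether the probe reads the spliced form, the unspliced form or both is not given in the sources used here.

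Herpud1 encodes a membrane protein that organises the ubiquitin ligase complex of ER-associated degradation. It had levels of 3.64, 4.10, 3.93 and 4.07, with a mean of 3.94 ± 0.21 (SD, n = 4), lowest on replicate 1 and 0.45 log2 units higher on replicate 2. Dnajb9 encodes ERdj4, an HSP40 co-chaperone that helps BiP bind IRE1 and shut it off. It was the dimmest of the probes, with processed intensities of 61.0, 46.4, 29.8 and 46.9, at least 2.74 times the lowest intensity marked well above background on the same array. Its levels were -0.84, -1.01, -1.10 and -0.44, with a mean of -0.85 ± 0.29 (SD, n = 4), highest on replicate 4 and lowest on replicate 3.

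**Figure D2:**
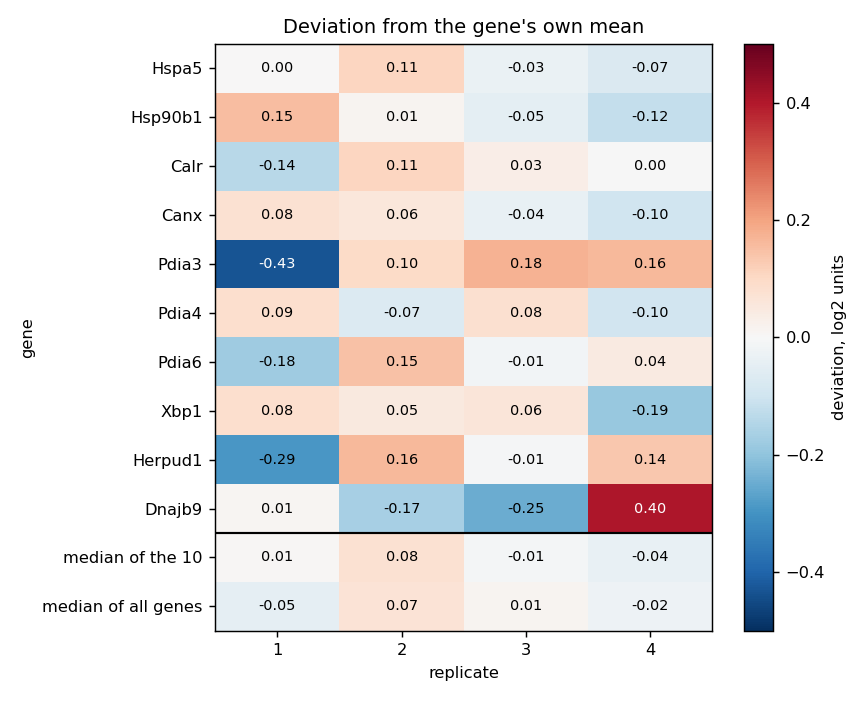
Deviation of each gene on each replicate from the gene's own mean over the 4 arrays, in log2 units (red above, blue below), with the median of the 10 genes and of all 14925 compared genes in the lowest rows. Pdia3, Herpud1, Pdia6 and Calr are below their means on replicate 1, and Dnajb9 stands highest on replicate 4 (0.40).

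The genes did not share 1 profile over the replicates with the main scaling. The lowest array was replicate 1 for 4 of the 10 (Calr, Pdia3, Pdia6 and Herpud1), against 39.5% of the 14925 compared genes, which are those detected on 2 or more arrays. It was replicate 4 for 5 of the 10 (Hspa5, Hsp90b1, Canx, Pdia4 and Xbp1), against 32.5% of all, replicate 3 for Dnajb9, against 14.7%, and replicate 2 for 0, against 13.4%. With quantile normalization or cyclic loess, replicate 4 was lowest for 2 of the 10 and replicate 3 for 3. With the normexp background correction the genes moved more alike, with 2 of the 10 below their own means on replicate 2, 9 on replicate 3 and 8 on replicate 4, against 34.8%, 61.0% and 62.3% of all compared genes. The highest array was replicate 1 for 4 genes (21.9% of all), replicate 2 for 4 (38.6%), replicate 3 for 1 (19.1%) and replicate 4 for 1 (20.4%). These counts follow the values that the choice of genes refers to, and nothing is read from them.

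Deviations from each gene's own mean show the same division in size. On replicate 1, Pdia3, Herpud1, Pdia6 and Calr were at -0.43, -0.29, -0.18 and -0.14 log2 units, and Hsp90b1, Pdia4, Xbp1 and Canx were at 0.15, 0.085, 0.082 and 0.077. Hspa5 and Dnajb9 were near their means there, at 0.00042 and 0.010. The median over the 10 genes was 0.0053, 0.077, -0.0098 and -0.039 on replicates 1 to 4, beside -0.045, 0.069, 0.015 and -0.024 over all compared genes. With the main scaling the 10 genes as a group were therefore close to the whole array on each replicate, while single genes lay on opposite sides. With normexp the medians of the 10 were 0.11, 0.17, -0.10 and -0.15, beside 0.019, 0.071, -0.034 and -0.055 over all compared genes.

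Differences between 2 of the genes on the same array do not depend on a single scaling factor for the array. Among the 45 pairs, the most alike were Calr and Pdia6, with a root mean square difference between their deviations of 0.044 log2 units over the 4 arrays, Hsp90b1 and Canx with 0.046, and Hspa5 and Canx with 0.047. The least alike were Pdia3 and Dnajb9 with 0.35, Xbp1 and Dnajb9 with 0.35, and Hsp90b1 and Pdia3 with 0.35. The log2 ratio of Pdia3 to Hsp90b1 was 0.87 higher on replicate 4 than on replicate 1, and between 0.69 and 0.88 higher under every scaling and background correction that was tried. The pair was picked after its values were seen, and its ratio has no replicate check.

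**Figure D3:**
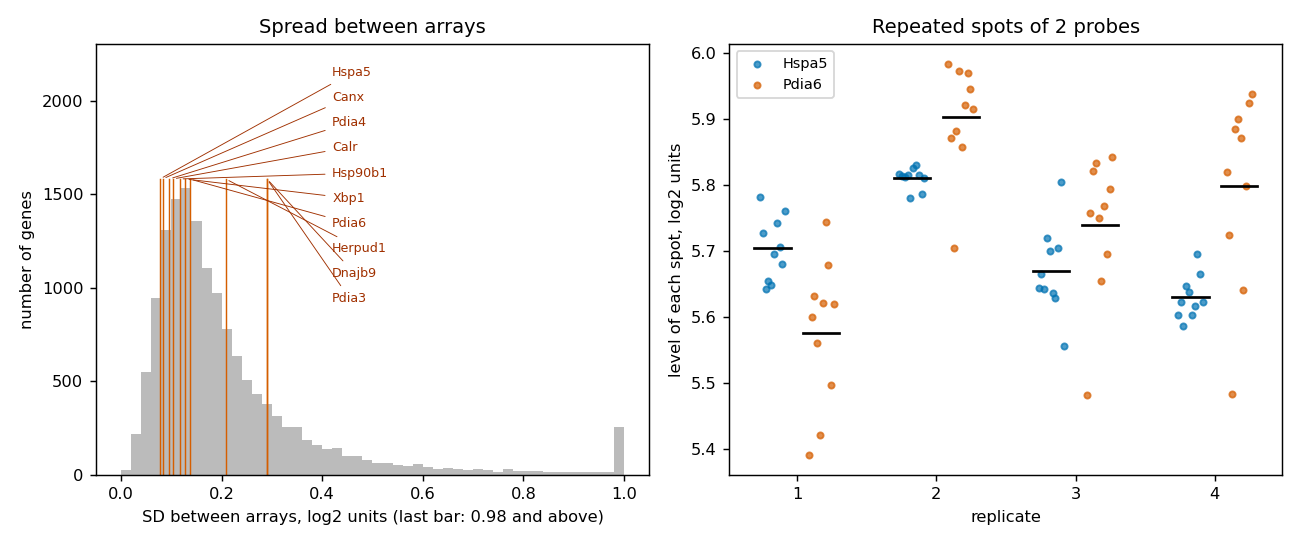
Left, number of compared genes (vertical axis) by SD between the 4 arrays in log2 units, with the SD of each of the 10 genes as an orange line, from 0.077 for Hspa5 to 0.29 for Pdia3 and Dnajb9. Right, level of each of the 10 spots of the Hspa5 and Pdia6 probes on each array, with the mean as a black bar, where every Hspa5 spot of replicate 2 (5.78 or more) lies above every one of replicate 4 (5.70 or less), which holds for this scaling and not with the percentile over detected probes or all spots.

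The spread between replicates was small for most of the genes with the main scaling. The SD over the 4 arrays had a median of 0.12 log2 units over the 10, beside 0.16 over all compared genes, and the median range was 0.27 beside 0.36. With normexp the order turned, with a median SD of 0.19 beside 0.15 and a median range of 0.41 beside 0.34. Without replicate 1 the median range was 0.16 beside 0.26. Genes detected on all 4 arrays, as these 10 were, had a median SD of 0.15 and a median range of 0.34 with the main scaling. Of them, 24.2% had a range above 0.5. A range above 0.5 log2 units was found for 2 of the 10, Pdia3 (0.61) and Dnajb9 (0.65), against 30.5% of all compared genes, and the next was Herpud1 with 0.45. With normexp neither passed 0.5 (Pdia3 0.39 and Dnajb9 0.42), while Hsp90b1, Canx and Xbp1 did, with 0.52, 0.52 and 0.53, against 17.7% of all. Ordered by SD, 10.7% of all compared genes varied less than Hspa5, 12.8% less than Canx, 65.7% less than Herpud1 and 80.7% less than Pdia3 or Dnajb9. The dim Dnajb9 probe and the bright Pdia3 probe therefore had the same SD of 0.29.

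Technical spread within an array could be read for the 3 probes that were spotted more than 1 time. The 10 Hspa5 spots had a pooled SD of 0.045 log2 units within an array, and the SD between the 4 array means was 0.077. On replicate 2 all 10 spots lay between 5.78 and 5.83, and on replicate 4 between 5.59 and 5.70, so these ranges did not overlap with the main scaling. They overlapped when the percentile was taken over detected probes or over all spots, and the range of Hspa5 between arrays ran from 0.089 to 0.42 over the settings with all arrays. The 10 Pdia6 spots had a pooled SD of 0.11 within an array, and the SD between array means was 0.14. Their ranges on replicate 1 (5.39 to 5.74) and replicate 2 (5.71 to 5.98) overlapped. For Hsp90b1, the pooled SD between its 2 spots was 0.13, and the SD between arrays was 0.12. The SD within an array is that of single spots, while an array's level is the mean of its spots, which varies less. The SDs within and between arrays are therefore not like for like.

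The other 7 probes had 1 spot per array and thus no such reading. The error that the software itself attaches to a spot was between 10.0% and 10.1% of the signal for all genes but Dnajb9, where it was between 11.4% and 12.9%. An error of 10.0% is 0.14 log2 units, and the SD between arrays was below the software's error for 7 of the 10 genes. It was above it for Pdia3, Herpud1 and Dnajb9, for 4 genes with quantile normalization or cyclic loess, and with normexp for all 10. The share of all compared genes on either side is not given here, so nothing is read from these counts. The software's error is technical, while the SD is between separate samples. It is also an error per spot, whereas the levels of Hspa5, Pdia6 and Hsp90b1 are means over several spots. Spots of 1 array share their RNA, labelling and hybridisation, so these values cover less than the difference between replicates does.

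Most genes that work beside these in the ER were also detected. Of 46 genes in 4 lists, for further folding and redox enzymes, ER-associated degradation, sensors of the stress response and entry into the ER, 41 had a probe and 36 were well above background on all 4 arrays, beside 48.0% of named genes. Their median SD was 0.14 log2 units. A range above 0.5 was found for 3 of the 36, against 30.5% of all compared genes and 24.2% of those detected on all 4 arrays. They were Creld2, Derl3 and Ube2j1, of which Ube2j1 was named after its values were seen. The lowest array was replicate 1 for 12 of the 36 and replicate 4 for 17, beside the shares of 39.5% and 32.5% among all compared genes.

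Among folding genes, the ER chaperone gene Hyou1 had a level of 3.86 ± 0.13 (SD, n = 4) and the BiP co-factor gene Sdf2l1 6.64 ± 0.16, both lowest on replicate 4 as Hspa5 was. Creld2, another ER stress gene, had 2.45 ± 0.35 (SD, n = 4) and was lowest on replicate 1, at 1.95 against 2.51 or more on the others. Manf was not matched to a probe, and Pdia5 and Ero1b had no array with a signal well above background. In ER-associated degradation, the ubiquitin ligase gene Syvn1 had 4.17 ± 0.12, its adaptor gene Sel1l 0.99 ± 0.075, the mannosidase-like gene Edem1 5.53 ± 0.081 and the channel gene Derl3 -1.23 ± 0.27 (SD, n = 4).

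Of the sensors, Eif2ak3, which encodes PERK, had a level of 1.09 ± 0.20 and Atf6 3.23 ± 0.17 (SD, n = 4). The probe of Ern1, which encodes IRE1, was not well above background on any array, so the sensor that splices Xbp1 mRNA has no more than an upper bound here. The translocon genes Sec61a1, Sec61b and Sec61g, which form the channel into the ER, had 5.83 ± 0.13, 2.53 ± 0.18 and 6.11 ± 0.18, and the translocon-associated gene Ssr2 4.74 ± 0.21 (SD, n = 4).

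**Figure D4:**
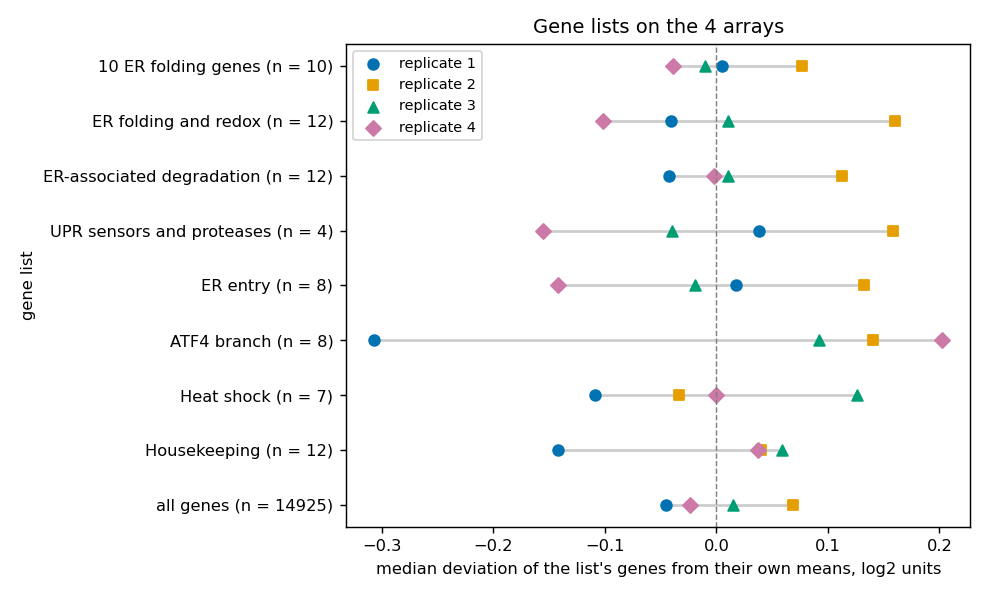
Median deviation from the genes' own means (horizontal axis, log2 units) on each replicate (symbols) for the 10 ER folding genes, 7 related lists and all compared genes, with the number of genes detected on all arrays after each name. The ATF4 branch is lowest on replicate 1 (-0.31) and highest on replicate 4 (0.20), while the 10 ER folding genes lie between -0.039 and 0.077. With the normexp correction the ATF4 branch is highest on replicate 2, and the 10 genes lie between -0.15 and 0.17.

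The ATF4 branch of the same response was placed differently on the arrays. All 8 of its listed genes were detected on all arrays, and all 8 were lowest on replicate 1, against 39.5% of all compared genes (7 of the 8 with the normexp background correction). Their median deviations were -0.31, 0.14, 0.092 and 0.20 log2 units on replicates 1 to 4. The levels of Atf4 were 6.30, 6.80, 6.64 and 6.75, those of Ddit3, which encodes CHOP, were 4.05, 4.33, 4.46 and 4.52, and those of the pseudokinase gene Trib3 were 3.52, 4.82, 4.68 and 4.99. Earlier results of these data had already shown this branch low on replicate 1, and the difference between it and the 10 folding genes was not tested.

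Among the 10, Herpud1 and Pdia3 were nearest to the median deviations of the ATF4 branch, with root mean square differences of 0.061 and 0.081 log2 units over the 4 arrays. Hspa5 lay 0.22, Xbp1 0.28 and Hsp90b1 0.30 from them. Against the median deviations of the further folding and redox genes the order was another, with Hspa5 nearest at 0.042, Herpud1 at 0.17 and Pdia3 at 0.25. With 4 arrays, such distances describe these samples and give no measure of shared control.

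Housekeeping genes and chaperones outside the ER give the scale of such shifts. The median deviation of 12 housekeeping genes on replicate 1 was -0.14, with Actb at -0.36, Gapdh at -0.19 and Hprt1 at -0.018, but the median was between -0.16 and 0.015 over the scalings and corrections tried, above 0 with quantile normalization. Of 7 heat shock genes detected on all arrays, which are cytosolic except the mitochondrial Hspd1 and Hspe1, 5 were lowest on replicate 1, against 39.5% of all compared genes (2 with quantile normalization or cyclic loess and 0 with normexp), and their median range of 0.27 log2 units matched that of the ER folding genes. Hspa8 had a level of 9.34 ± 0.12 and Hsp90aa1 7.12 ± 0.11, both SD with n = 4, and Hsp90ab1 lay between 7.89 and 8.23 on the 4 arrays. A shift of 0.1 to 0.2 on replicate 1, as in Calr and Pdia6, was thus also seen in genes outside the ER, though not under each scaling.

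The promoter matches can be set beside these values. With the main scaling, the 5 genes whose window held the full ER stress element had ranges between 0.18 (Canx and Hspa5) and 0.27 log2 units (Hsp90b1 and Xbp1). Herpud1, with the other arrangement, had 0.45, and Pdia4 and Dnajb9, with neither, had 0.18 and 0.65. With normexp the 5 genes had ranges between 0.36 (Calr) and 0.53 (Xbp1), beside 0.35 for Herpud1, 0.33 for Pdia4 and 0.42 for Dnajb9. Among 9 other genes with the element, described below, ranges ran from 0.087 to 0.78 with the main scaling. No test was made of this, and 1 of the genes without a match varied as little as those with one.

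Of 7942 other named genes detected on all arrays, the 5 whose deviations were most like the median of the 10 were Rell1, Slc39a6, LOC100912041, Ctps2 and Top3b, with root mean square differences between 0.0098 and 0.012 log2 units over the 4 arrays. The median profile is nearly flat, and 3242 of these genes (40.8%) lay within 0.1 log2 units of it, so that the order among them carries little.

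**Figure D5:**
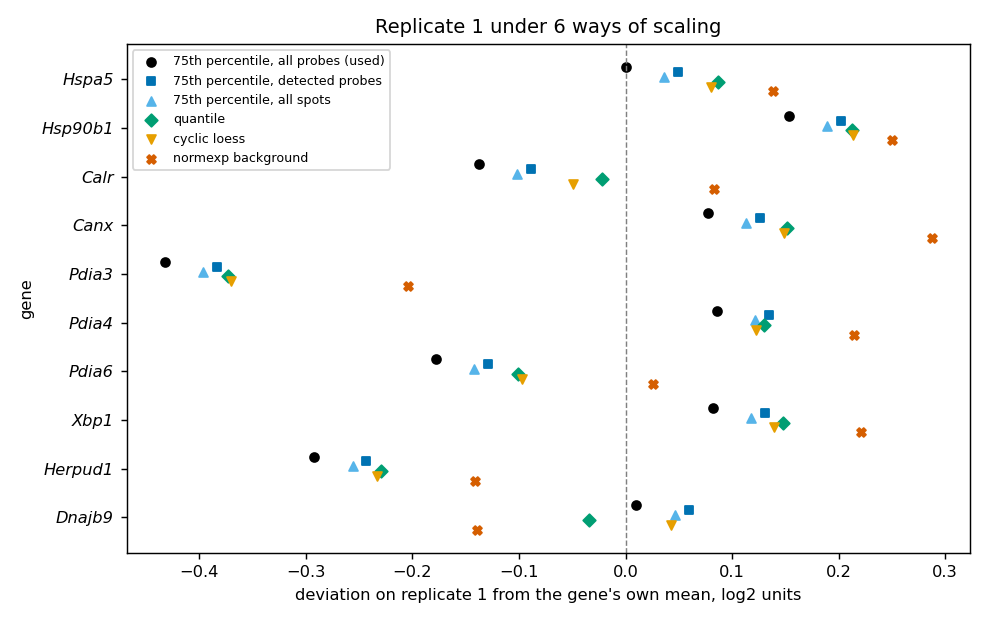
Deviation of each gene on replicate 1 from its own mean (horizontal axis, log2 units) under 6 ways of scaling or background correction (symbols). Pdia3 and Herpud1 are below 0 under all 6, Hsp90b1, Canx, Pdia4 and Xbp1 above 0 under all 6, and Calr and Pdia6 are above 0 with the normexp correction.

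The placing of the genes on replicate 1 was recomputed under other scalings. Pdia3 lay between -0.43 and -0.20 and Herpud1 between -0.29 and -0.14 under every setting with all 4 arrays. Hsp90b1 lay between 0.15 and 0.25, Canx between 0.077 and 0.29, Pdia4 between 0.085 and 0.21, and Xbp1 between 0.082 and 0.22. Calr and Pdia6 were below their means under each setting but the normexp background correction, where they were at 0.083 and 0.026. Dnajb9 changed side, from 0.059 with the percentile over detected probes to -0.14 with normexp.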

How the data were processed

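The deposited files hold 1 array each, with intensity on a linear scale made by the authors with Agilent Feature Extraction 11.0.1.1, as stated in the submitters' processing notes and, per the file headers, in each file. The processed values are background-subtracted and not normalized between arrays. From them, log2 values were averaged over the spots of a probe without control spots and spots marked non-uniform, and the 75th percentile of an array's probes was subtracted. Of the 45598 probes, 21109 (46.3%) were named by matching accessions without versions to RefSeq genes of assembly GRCr8. A gene with more than 1 probe was read from its brightest probe on average. A probe counted as well above background where at least 50% of its spots were so marked, and genes so marked on at least 2 arrays were compared. The members and lists were chosen with earlier results of these data known. The rule for naming genes of a related list was its first 3 members and the one with the largest range. Pdia5, Ero1b, Ube2j1, Dnajc3, Hspd1 and Hspe1 are named outside this rule. Protein features had been planned and were not analysed here. One planned cell type marker is not reported here. No group contrast was possible, so no test between conditions was run, and Dixon's gap limit was used to mark single arrays that stand apart. The precision is limited by the number of arrays, and SDs measure the spread between these 4 samples. Alternatives were quantile normalization, cyclic loess, other percentiles, normexp with offset 50 in limma 3.58.1 under R 4.3.3, other probe and spot rules, and leaving out each replicate. The files hold no mean spot signal, so normexp used the median signal and the median background. Profile statistics were tested on simulated data. Python 3.11.15 was used for the rest.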

Additional observations from a re-analysis of the deposited data

Results flagged for a closer look

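For 2 of the 10 genes, 1 array stood apart from the other 3 by more than the limit of Dixon's gap test for 4 samples, which divides the gap to the nearest other value by the range. Pdia3 was at 3.81 on replicate 1, with a gap of 0.87 of the range, and Xbp1 at 3.68 on replicate 4, with 0.87 as well. Chance alone marks about 1 in 20 groups, 5.83% of all 14925 compared genes exceeded the limit, and of 32 genes looked at these were the 2 that did. Genes outside the rule for naming were not among the 32. Of those, Ube2j1 also exceeded the limit, at 1.16 on replicate 1 against 1.70 to 1.75 on the others. Pdia3 and Xbp1 fell below the limit with quantile normalization, cyclic loess, the percentile over detected probes, that over all spots and the normexp correction. There the ratio lay between 0.45 and 0.70 for Pdia3 and between 0.40 and 0.53 for Xbp1. The probes of these 2 genes had 1 spot per array, so no repeated spot bears on either value.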

How the results depend on the processing

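Which array was highest or lowest for a gene depended on the scaling, since the differences are small. With quantile normalization and with cyclic loess, 0 genes were highest on replicate 2, 0 on replicate 3 and 5 on replicate 4, and 1, 3 and 2 were lowest on replicates 2, 3 and 4. With the percentile over detected probes the numbers highest were 0, 0 and 5 and the numbers lowest 1, 2 and 3, and with that over all spots they were 2, 0 and 4 and 1, 2 and 3. With normexp 0 were highest on replicate 3, 3 had a range above 0.5 (none of them Pdia3 or Dnajb9), and the median range of the 10 genes was 0.41 log2 units in place of 0.27. The shares of all compared genes that were highest or lowest on each array are given for the main scaling alone. No shift of the 10 genes apart from the whole array is therefore read from these counts. The cause of the changes between settings was not tested. With dim probes included the median SD of all compared genes was 0.33 in place of 0.16. Leaving out each replicate in turn, the median SD of the 10 genes lay between 0.086 and 0.14, their median range between 0.16 (without replicate 1) and 0.27, the number with a range above 0.5 between 1 and 2 (1 without replicate 1, where Pdia3 no longer had one, and 1 without replicate 4, where Dnajb9 did not), the number highest on replicate 3 between 1 and 3 and on replicate 4 between 1 and 3, and the number lowest on replicate 2 between 1 and 2 and on replicate 3 between 1 and 4. The number lowest on replicate 1 was 3 or 4 over all settings with 4 arrays, and all 10 genes stayed well above background on all arrays with non-uniform spots kept. Of 540 values of single genes under settings with all arrays (SD, range and deviations), 500 moved by less than the gene's own SD and 40 by more, 26 of these with normexp. The 500 include settings that could not move these genes, namely averaging detected probes and the other limits on dim probes. Keeping non-uniform spots changed the values very little. The 500 are therefore no measure of stability. No paired analysis was possible because there was 1 group. The dim Dnajb9 probe is the one whose signal over background limits its precision most.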

Other observations

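The full ER stress element was also found in the windows of 16 other genes. Of these, 11 had a probe, and 9 were well above background on all 4 arrays, with ranges between 0.087 and 0.78 log2 units. They include the ER stress genes Creld2 and Derl3, with levels of 2.45 ± 0.35 and -1.23 ± 0.27 (SD, n = 4), and Dnajc3, which encodes an inhibitor of PERK, with 2.89 ± 0.13. They also include Zfand2a, an arsenite-inducible proteasome regulator, with 5.43 ± 0.074, and the mitotic survival gene Birc5 with 3.95 ± 0.23 (SD, n = 4). Zfand2a, Birc5 and Dnajc3 were named after their values were seen.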
